A study of Mus musculus with 2 samples.

Results

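Described here are 40 genes of the NRF2, glutathione and thioredoxin defence against oxidants, chosen by name, against 18193 genes that the array annotation gives as a single symbol. A member was followed through the probe sets, groups of short probes summarised as 1 signal, whose only annotated symbol was that gene. Of the 40, 37 had such a probe set, 73 probe sets in all. Prdx1 was annotated only together with another symbol, on 5 probe sets, and Prdx5 and Prdx6 were on no single-symbol probe set, so that these 3 peroxiredoxins were not analysed here. Gpx3 and Sod3 read below a floor of 67.7, the median signal of all probe sets other than controls on both arrays, on each array and count as not measured. This left 35 measured members.

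The samples are 2 primary cultures of keratinocytes, the main cell of the epidermis, from newborn C57BL/6 mice, each hybridised to 1 Affymetrix 3′ expression array. The control culture came from mice that the sample title names MED1flox/flox and the source label calls wild-type. The other came from MED1epi-/- mice, in which the floxed Med1 gene, for a subunit of the Mediator complex, is recombined by Cre under the keratin 5 promoter (K5Cre) in cells that express keratin 5. The series title calls the control a littermate. The labels name no agent added to either culture and do not say how many animals went into a culture. With 1 array per group there is no replicate, no test and no p-value, and precision is limited throughout by that number. The spread between probe sets of the same gene was a pooled SD of 0.31 in log2 ratio over 4916 genes, or 1.24-fold, and 18 hybridisation control probe sets had log2 ratios from -0.17 to 0.21. Neither covers the spread between cultures.

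Several facts of the pair of arrays touch every comparison. Med1 itself read 462.7 on the control array, against 1038.7 on the other, higher where the label says null, and the deleted part of the gene is not given in the sources used here. The second array is therefore called the array labelled MED1epi-/-, and each direction is that of the labels. Xist read 5461 and 55.7 and the Y-linked Eif2s3y 4.2 and 2164, so that sex-linked transcripts differed with the label and cannot be told apart from it. Keratin genes Krt5 (26821 and 32220) and Krt14 (32905 and 36849) read high on both arrays, while of the spinous keratins Krt1 was below the floor on both and Krt10 read 194.6 and 251.3. Trp63 (7798 and 11736) and Col17a1 (12385 and 18599) each had a log2 ratio of 0.59. The 6 keratinocyte markers summed to 80131 and 99712 (124%). Summed over 8 melanocyte markers the signal was 25056 on the control array, against 19507 on the array labelled MED1epi-/-, with all 8 above the floor. The sum over 8 fibroblast markers was 3370 and 1449, of which Sparc made up 2709 and 1034, and Col1a1 and Lum were below the floor on both arrays. The 6 leukocyte markers summed to 148.8 and 123.0 with 5 below the floor on both arrays, the 4 endothelial markers to 176.2 and 173.1 with 3 below it, and the erythroid markers Hba-a1 and Alas2 were below it on both. Adipocyte markers summed to 85.6 and 111.9. The part of keratinocyte, melanocyte or fibroblast RNA in the values below was not tested. In such bulk RNA, fewer cells of a type and less RNA per cell cannot be told apart.

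As background, NRF2 (Nfe2l2) is a transcription factor that the adaptor KEAP1 holds at low level by directing it to degradation. Oxidants and electrophiles modify KEAP1, NRF2 accumulates, pairs with small MAF proteins and binds antioxidant response elements near genes of glutathione synthesis, thioredoxin reduction and quinone reduction. The glutathione and thioredoxin systems both draw electrons from NADPH, through glutathione reductase and thioredoxin reductase, to return oxidised proteins and peroxidases to their reduced state. Metallothioneins and ferritin bind zinc, copper and iron, and the first are induced by zinc through the transcription factor MTF1. In the epidermis these systems guard cells that are exposed to light, air and chemicals.

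Promoter sequences are printed for the 4 members that were 2-fold or more apart and for both metallothionein genes. They show which motifs of these pathways lie next to an annotated start of transcription. Each is the 150 bases before a start annotated by RefSeq on assembly GRCm38.p6, 5′ to 3′ in the direction of the gene. Capitals mark TGACNNNGC, the core of the antioxidant response element, or TGCACNC or TGCGCNC, the core of the metal response element, on either strand.
Txnrd1 (thioredoxin reductase, lower, chr10:82859056-82859205, plus strand): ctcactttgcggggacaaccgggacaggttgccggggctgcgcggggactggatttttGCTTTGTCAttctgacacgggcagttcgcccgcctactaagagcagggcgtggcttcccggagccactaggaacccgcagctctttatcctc
Txnip (thioredoxin-interacting protein, lower, chr3:96557807-96557956, plus strand): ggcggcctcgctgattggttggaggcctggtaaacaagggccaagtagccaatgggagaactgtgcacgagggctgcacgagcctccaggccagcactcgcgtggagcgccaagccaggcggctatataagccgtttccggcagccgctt
Gsta2 (alpha class transferase, higher, chr9:78347146-78347295, minus strand): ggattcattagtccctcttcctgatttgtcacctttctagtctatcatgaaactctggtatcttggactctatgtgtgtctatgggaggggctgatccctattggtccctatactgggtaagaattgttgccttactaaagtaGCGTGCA
Mgst2 (microsomal transferase, higher, chr3:51661029-51661178, plus strand): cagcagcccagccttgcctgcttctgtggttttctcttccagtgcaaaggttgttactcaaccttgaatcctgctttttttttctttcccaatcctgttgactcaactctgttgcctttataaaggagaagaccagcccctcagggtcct
Mt1 (metallothionein, lower, chr8:94178939-94179088, plus strand): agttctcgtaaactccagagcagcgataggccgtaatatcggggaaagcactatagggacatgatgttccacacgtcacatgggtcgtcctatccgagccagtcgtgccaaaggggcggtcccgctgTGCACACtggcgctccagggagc
Mt2 (metallothionein, lower, chr8:94172468-94172617, plus strand): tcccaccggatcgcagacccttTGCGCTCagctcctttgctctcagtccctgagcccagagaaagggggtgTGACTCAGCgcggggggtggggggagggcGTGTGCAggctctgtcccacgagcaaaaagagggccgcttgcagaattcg
Txnrd1 has 3 annotated starts, and only the window of the one shown held the antioxidant core, in the opposite orientation, with its leftmost base 92 bases before the start. The stretch of Mt2 held both motifs, the antioxidant core TGACTCAGC 79 bases before the start and metal cores 128 and 50 bases before it. That of Mt1 held a metal core 23 bases before the annotated start, and its window held 2 more in the 50 bases after it. Whether transcription of Mt1 begins at that annotated start was not tested, so these positions hold for the annotation only. Txnip had none in the 150 bases and a metal core 208 bases before the start. Gsta2 had a metal core at its last 7 bases, a second match of its window began 4 bases before the start, and Mgst2 had no match of either motif in its window.

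Over windows from 250 bases before to 50 after the start, the RefSeq table matched 34 of the 40 genes; Hmox1, Gclc, Gsr, Gsta4, Prdx6 and Sod3 were not matched. The antioxidant core was found in 10 of the 34, or 29.4%, against 14.0% of all 27025 genes of the table (12.4% of 32851 windows). The 10 were Nfe2l2, Gclm, Gsta3, Gstm5, Mgst1, Txnrd1, Srxn1, Prdx1, Sod1 and Mt2, and the list was drawn up from genes many of which are known NRF2 targets. Metal cores were found in 9 of the 34, or 26.5%, against 28.2% of all genes (25.7% of windows). The motifs can overlap, as the antioxidant core of Gclm at 134 bases before the start did with a metal core whose leftmost base lay at 138. A match is a run of letters and not a shown binding site. Of the 10 with the antioxidant core, 9 were measured, 7 with a log2 ratio below 0 and 2 above. Those below were Txnrd1 (-1.13), Mt2 (-0.60), Gstm5 (-0.33), Sod1 (-0.21), Srxn1 (-0.14), Nfe2l2 (-0.07) and Gclm (-0.05), and those above Gsta3 (0.66) and Mgst1 (0.48). Nfe2l2 and Sod1 also had probe sets above 0. Of the 9 measured members with a metal core, 6 were below 0 and 3 above. The share below 0 was 42.9% over all measured genes and 60.0% over the measured members. These counts rest on too few genes to set apart from that background, and no test was made.

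Only 4 of the 35 measured members were at least 2-fold apart between the arrays (11.4%, against 3.86% of all measured genes). The transferases Gsta2 and Mgst2 were higher on the array labelled MED1epi-/-, 5.71% of the members against 1.63% of all 11621 measured genes. The thioredoxin reductase gene Txnrd1 and the thioredoxin inhibitor gene Txnip were lower, also 5.71% of the members against 2.23% of all measured genes. At 2 genes in each direction, these shares rest on too few members to set apart from the background, and no test was made. The median log2 ratio over the 35 was -0.07, against 0.06 over all measured genes, and 21 were below 0 (60.0%, against 42.9% of all measured genes). Within 1.2-fold lay 16 members (45.7%, against 54.4% of all measured genes). Rescaling of the arrays kept the direction of 31 of the 35 members. Those of Gpx1, Gpx2, Gstm1 and Gstm2 turned in at least 1 of 3 rescalings. Setting the median ratio of the arrays to 0, one of the 3, lowered every member, so that none of the 21 below 0 could turn under it. With a lowess rescaling the series as a whole had 143 genes higher and 314 lower, against 190 and 259 in the values as deposited.

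**Figure D1:**
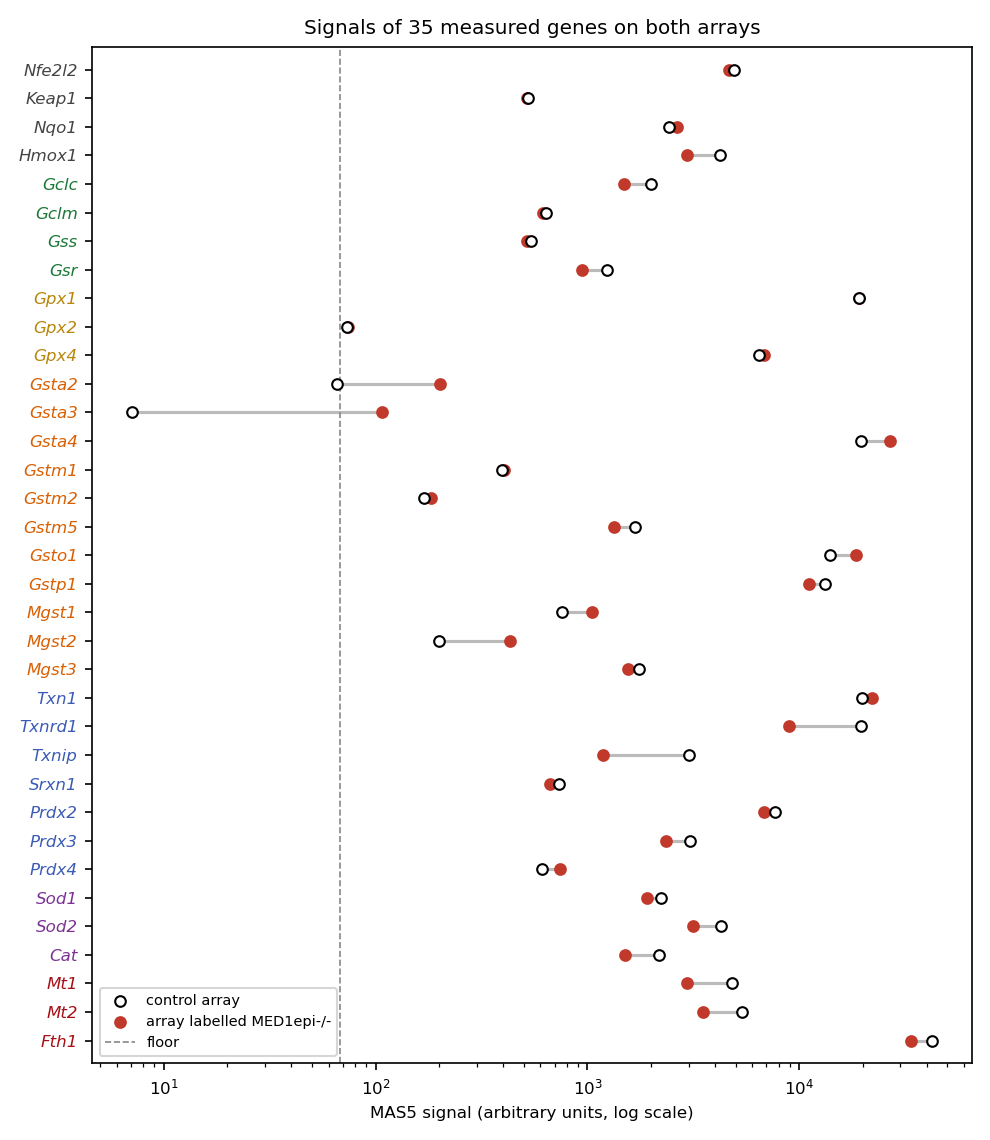
MAS5 signal (x axis, arbitrary units, log scale) of the 35 measured members on the control array (open circles) and the array labelled MED1epi-/- (red), by the strongest probe set of each gene; the dashed line is the floor of 67.7 and gene names are coloured by group. The widest gaps above the floor belong to Txnip (3030 and 1184), Txnrd1 (19546 and 8957) and Mgst2 (199.1 and 430.6), while the control values of Gsta2 and Gsta3 lie below the floor.

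The thioredoxin system held both members that were 2-fold lower. Txnrd1 encodes cytosolic thioredoxin reductase, the selenoprotein that reduces thioredoxin with NADPH. Its 3 probe sets read 19546, 4658 and 1314 on the control array, against 8957, 1720 and 473.6 on the array labelled MED1epi-/-. All 3 were lower there, by 2.18-fold, 2.71-fold and 2.77-fold (log2 ratios -1.13, -1.44 and -1.47). The suffix was _x_at for the weakest and _a_at for the others, and both mark probe sets that may detect more than 1 transcript. With _x_at these may include transcripts of other genes. Whether they did was not tested. Measured genes were put in 10 bins of equal size by mean signal. Txnrd1 lay in the top bin, where 15 of 1162 genes, or 1.29%, were at least 2-fold lower and 0.516% at least that much higher, and it was 196th from the lowest ratio among all measured genes. Txnip binds reduced thioredoxin and blocks it, and is itself induced by glucose. Its 2 probe sets read 3030 and 1775 on the control array, against 1184 and 800.3 on the other, 2.56-fold and 2.22-fold lower (log2 ratios -1.36 and -1.15). Of the 1163 genes in its signal bin, 2.24% were 2-fold lower or more and 0.774% higher by as much. For both genes the probe sets agreed in direction and each was beyond 2-fold.

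The partner of both, thioredoxin (Txn1), a small dithiol protein, did not share that size of difference. Its stronger probe set read 19776 on the control array, against 22056 on the array labelled MED1epi-/-, 1.12-fold higher (log2 ratio 0.16), and its weaker one 109.5 and 135.7. The log2 ratio of Txn1 was thus of the opposite sign to those of its reductase and its inhibitor, and below the probe-set spread of 0.31. Srxn1, sulfiredoxin, which repairs overoxidised peroxiredoxins, read 733.2 and 666.4, and the log2 ratios of its 3 measured probe sets lay between -0.16 and -0.14. Prdx3, the mitochondrial peroxiredoxin, was 1.30-fold lower at 3055 and 2356 on its only probe set. Prdx4, the peroxiredoxin of the endoplasmic reticulum, read 612.6 and 738.4 by its strongest probe set and went slightly the other way by the other measured ones, with log2 ratios of -0.13 and -0.18. Prdx2, a cytosolic peroxiredoxin, had probe sets that disagreed. The strong one read 7642 and 6798 (log2 ratio -0.17), and the weak one 203.4 and 523.0 (1.36), so that its direction was not settled. The median over the 7 measured genes of the thioredoxin and peroxiredoxin group was -0.17, with 5 below 0 and 2 above.

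**Figure D2:**
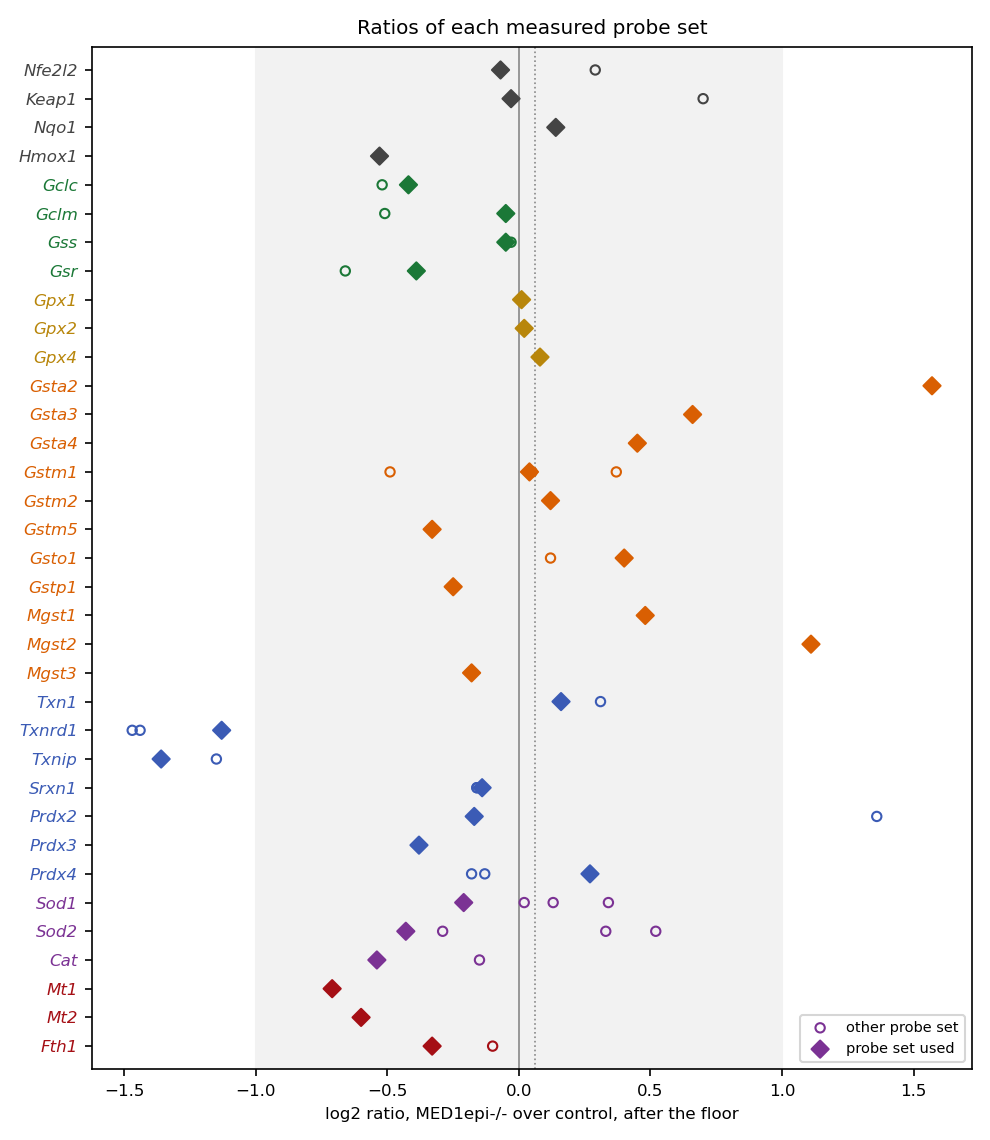
Log2 ratio of the array labelled MED1epi-/- over the control array (x axis, after the floor) for each measured probe set of the 35 members; filled diamonds are the strongest probe set of the gene, open circles the others, the grey band is within 2-fold and the dotted line the median of all measured genes, 0.06. The probe sets of Txnrd1 and Txnip lie together below -1, while those of Prdx2 run from -0.17 to 1.36 and those of Sod2 from -0.43 to 0.52.

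Further genes with a thioredoxin fold or a role beside it were read from a list of 18. None of the 18 measured was 2-fold apart, against 3.86% of all measured genes. On either side of 0 lay 9, with a median log2 ratio of 0.05. Glrx, glutaredoxin, which reduces disulfides with glutathione, was the farthest from 0: its 2 probe sets read 11643 and 10901 on the control array, against 6354 and 6095 on the other, 1.83-fold and 1.79-fold lower. Sesn2, a sestrin that is induced by stress, read 1161 and 791.6 (1.47-fold lower), and its second probe set 1139 and 699.6. The mitochondrial reductase Txnrd2 (487.7 and 660.9) and Txnrd3, a reductase with a glutaredoxin domain (703.6 and 969.4), read higher by the probe set used, at 1.36-fold and 1.38-fold, against the lower Txnrd1. Both were picked with their values in view. The 4 measured probe sets of Txnrd2 disagreed, from -0.59 to 0.44 in log2 ratio, while the 3 of Txnrd3 ran from 0.03 to 0.77. Arrdc4, an arrestin-like relative of Txnip, read 2110 and 1544, and its relative Arrdc3 1092.1 and 1091.7; both were likewise named after their values were seen.

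The strongest probe sets of Nfe2l2 and Keap1 were close to level between the arrays, and the weaker ones read higher on the array labelled MED1epi-/-. Nfe2l2 read 4904 on the control array, against 4657 on the other, and by its weaker probe set 48.4, below the floor, and 82.9 (log2 ratio 0.29 after the floor). Keap1 read 526.8 and 516.5 by its stronger probe set. The weaker Keap1 probe set read 188.5 and 305.4, 1.62-fold higher, so that its direction was not settled, with a mean of 0.33 over both. Levels of these transcripts do not report NRF2 protein, which is set mainly by degradation. Nqo1, a quinone reductase commonly used to read out NRF2, was 1.10-fold higher at 2422 and 2660, on 1 probe set. Hmox1, heme oxygenase, which NRF2 induces once heme displaces the repressor BACH1, was 1.44-fold lower at 4237 and 2936 (log2 ratio -0.53), also on 1 probe set. Thus 2 classical targets lay on opposite sides of 0, and only Hmox1 was farther from it than the probe-set spread.

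Of the genes of glutathione synthesis and recycling, Gclc and Gsr read lower by more than the probe-set spread, Gclm and Gss were within it by the stronger probe sets, and none was 2-fold apart. The median log2 ratio of the 4 was -0.22, and all 8 of their probe sets were below 0. The 4 genes were also below 0 under each of the 3 rescalings, of which setting the median ratio to 0 could only lower them. Gclc, the catalytic subunit of glutamate-cysteine ligase, the first and limiting step, read 1996 and 1608 on the control array, against 1496 and 1118 on the other, 1.33-fold and 1.44-fold lower. Its modifier subunit Gclm was near level by the stronger probe set, 637.0 and 614.8, and 1.43-fold lower by the weaker one, 144.5 and 101.4. Gss, glutathione synthetase, which adds glycine, read 539.1 and 519.5. Gsr, glutathione reductase, which regenerates glutathione with NADPH, read 1234 and 1169 on the control array, against 942.6 and 740.6 on the other, 1.31-fold and 1.58-fold lower. The glutathione peroxidases, which spend glutathione on peroxides, were level: Gpx1 read 19044 and 19193, and Gpx4, which reduces lipid hydroperoxides, read 6460 and 6844 by one probe set and 6429 and 6788 by the other. Gpx2 lay just above the floor at 73.7 and 74.5, and Gpx3 below it at 21.3 and 18.2.

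Glutathione breakdown and cysteine supply were read from 13 further genes, 12 of them measured. Of these, 10 read lower (83.3%, against 42.9% of all measured genes) and 2 higher, with a median log2 ratio of -0.20. Ggct counts as lower at -0.32, while its other measured probe set was at 0.98, with the control array below the floor. It was named for that disagreement, after its values were seen. At least 2-fold lower was 1 of the 12, against 2.23% of all measured genes, too few to set apart. That one was Chac1, which cleaves glutathione, at 2979 and 650.2 (4.58-fold lower). Slc3a2, the heavy chain of the cystine importer and other amino acid transporters, followed at 5559 and 2944 (1.89-fold lower). Cth, which makes cysteine from cystathionine, was 1.81-fold lower at 1868 and 1029 and was named after its value was seen. The importer's light chain Slc7a11, also named after its value was seen, read 234.2 and 221.6 by its stronger probe set, while the weaker one read 165.2 on the control array, against 65.0, below the floor, on the other. The 2 genes that read higher were likewise named after their values were seen. Anpep read 78.9 and 139.9 (1.77-fold higher), with the control value just above the floor. Slc1a5 read 131.9 and 201.3 (1.53-fold higher).

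Glutathione transferases, which join glutathione to electrophiles, were the group with the highest median, 0.40 in log2 ratio over 11 genes, and held both members that were 2-fold higher. Of the 11, 8 were above 0 and 3 below; under the lowess rescaling it was 6 and 5, as Gstm1 and Gstm2 turned below 0. Gsta2, an alpha class transferase, read 65.5, below the floor, on the control array, against 200.9 on the array labelled MED1epi-/-, at least 2.97-fold higher on 1 probe set. In its signal bin, which is low, 62 of 1162 genes, or 5.34%, were 2-fold or more higher, and 5.25% lower by as much. Its near relative Gsta1 was on no single-symbol probe set, and whether the Gsta2 probes also detect it was not tested. Gsta3 read 7.1 and 107.1, at least 1.58-fold higher given the floor. Gsta4, which acts on 4-hydroxynonenal, a product of lipid peroxidation, was measured well above the floor, at 19508 and 26715 (1.37-fold higher, log2 ratio 0.45). Gsta2 and Gsta3 count as measured only through the array labelled MED1epi-/-, so that their ratios after the floor could not be below 0. Both are among the 8 above 0. Their direction therefore adds nothing to that of Gsta4, the only one of the 3 alpha class genes above the floor on both arrays.

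Mgst2, a microsomal transferase that can also make leukotriene C4, read 199.1 and 430.6, 2.16-fold higher (log2 ratio 1.11), on 1 probe set. In its signal bin 20 of 1162 genes, or 1.72%, were higher by at least 2-fold and 2.58% lower. Mgst1 read 754.7 and 1053 (1.40-fold higher) and Mgst3 1760 and 1551 (1.13-fold lower), so that the microsomal enzymes did not go one way. With a higher floor of 434.6, the 75th percentile, Gsta2 and Mgst2 were below it on both arrays, and 0 members counted as 2-fold higher. Gsto1, an omega class enzyme that also reduces dehydroascorbate, read 13950 and 18438 by one probe set and 12646 and 13756 by the other, 1.32-fold and 1.09-fold higher. Gstp1, the pi class enzyme, was 1.19-fold lower at 13198 and 11083. Among the mu class, Gstm5 was 1.26-fold lower at 1683 and 1339, and Gstm2 read 168.7 and 183.0. The probe sets of Gstm1 read 393.7, 342.5, 117.0 and 49.6 on the control array, against 405.3, 354.6, 83.2 and 87.7 on the other. Log2 ratios after the floor lay between -0.49 and 0.37, and mu class genes are close in sequence, so that their probe sets may share signal. Of 15 other transferase genes, 10 were measured, with a median of -0.09, against 0.40 for the 11 members. None of the 10 was 2-fold apart, against 3.86% of all measured genes. Gstz1 (270.7 and 415.8, 1.54-fold higher) and the prostaglandin D synthase Hpgds (330.3 and 236.6, 1.40-fold lower) were the farthest from 0 among them.

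**Figure D3:**
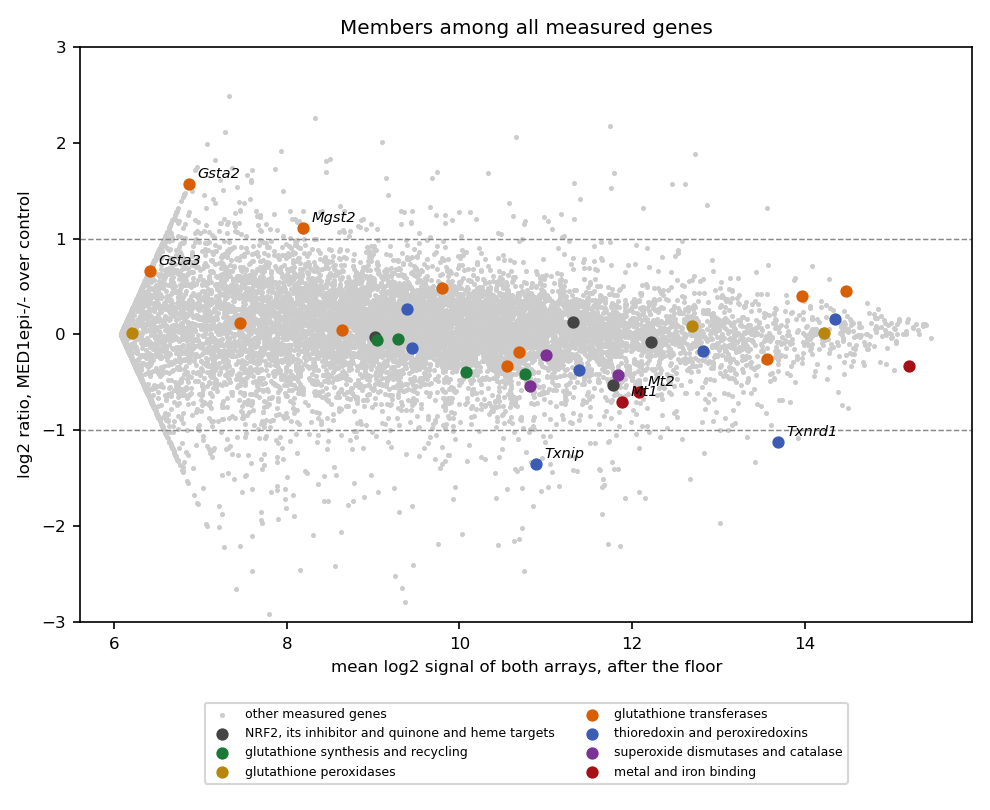
Log2 ratio of the array labelled MED1epi-/- over the control array (y axis) against the mean log2 signal of both arrays (x axis, after the floor) for the 11621 measured genes in grey and the 35 members in colour by group; dashed lines mark 2-fold, and 6 genes beyond 3 in log2 ratio are outside the plot. Gsta2 and Gsta3 lie on the left edge, where the floor bounds the ratio, and Txnrd1 (-1.13) lies among the strongest signals, where the ratios of other genes spread less.

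Superoxide dismutases and catalase, which remove superoxide and hydrogen peroxide, read lower by the strongest probe sets, but those of the dismutases did not agree. Sod2, the mitochondrial enzyme, read 4251, 3310, 517.9 and 71.1 by its probe sets on the control array, against 3161, 2716, 652.1 and 101.8 on the other. The 2 stronger ones were lower and the 2 weaker ones higher, from -0.43 to 0.52 in log2 ratio. Sod1, the cytosolic enzyme, read 2213, 2028, 268.3 and 35.2 on the control array, against 1907, 2051, 340.1 and 74.2 on the other, with log2 ratios from -0.21 to 0.34 after the floor. The remaining probe set of Sod1 was below the floor on both arrays. Catalase, Cat, read 2181 and 1503 by one probe set and 1643 and 1476 by the other, 1.45-fold and 1.11-fold lower. The median of the 3 genes was -0.43 by the strongest probe sets and 0.03 by the mean over probe sets, so the group has no settled direction. Sod3, the secreted form, was below the floor at 11.2 and 9.4.

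Metal and iron binding genes all read lower, and this group had the lowest median, -0.60. Mt1 and Mt2, metallothioneins that bind zinc and copper, read 4828 and 5352 on the control array, against 2956 and 3529 on the array labelled MED1epi-/-. The differences were 1.63-fold (log2 ratio -0.71) and 1.52-fold (-0.60), each on 1 measured probe set (a second of Mt1 was below the floor at 10.1 and 30.4). Both genes were below 0 under each rescaling, of which setting the median ratio to 0 could only lower them. The measured probe set of Mt1 carries a suffix, _s_at, and whether it also detects other transcripts was not tested. Without suffixed probe sets, only Mt2 was left in this group. Fth1, the ferritin heavy chain, which stores iron, was 1.26-fold lower at 42302 and 33675 by one probe set and 1.07-fold lower at 31857 and 29796 by the other. Neither metallothionein reached 2-fold, and both lay beyond the probe-set spread of 0.31, as Fth1 did by its stronger probe set only. Of 15 other metal and iron genes, 13 were measured and none was 2-fold apart, against 3.86% of all measured genes. Of the 13, 7 were above 0 and 6 below, and the median was 0.06. Slc40a1, the iron exporter ferroportin, was 1.67-fold higher at 237.4 and 395.8, and the zinc importer Slc39a10 1.49-fold higher at 967.0 and 1444. Next farthest from 0 was Mt3, another metallothionein gene, at 95.6 and 51.1 (at least 1.41-fold lower). Its second value is below the floor, so that its ratio could not be above 0. Mt3, Mtf1 and the zinc exporter Slc30a1 were picked with their values in view. Mtf1 read 354.3 and 479.0, with its 3 measured probe sets between 0.44 and 0.75 in log2 ratio. Slc30a1, which like the metallothioneins is induced by zinc through MTF1, read 378.3 and 505.8 (1.34-fold higher), the opposite direction to Mt1 and Mt2.

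The remaining genes of the pathway were likewise within 2-fold. Of 10 partners and regulators of NRF2, 7 were below 0 (70.0%, against 42.9% of all measured genes) and 3 above by the strongest probe sets. The median was -0.19, and 10 genes are too few to set apart from that share. In 3 of the 6 with several measured probe sets these went both ways (12 of 35 over all the further lists). Cul3, the scaffold of the ligase that KEAP1 serves, counts as below at -0.18, while its other 4 probe sets had log2 ratios from 0.41 to 0.97. Bach2 counts as below at -0.29 with its other 2 at 0.36 and 0.40, and Nfe2l3, which counts as above at 0.55, had one at -0.75. These 3 were named for that disagreement, after their values were seen. Sqstm1, the p62 adaptor that binds KEAP1 and is itself an NRF2 target, was the farthest from 0, at 11722 and 5874, a ratio just under 2. Rbx1, the RING subunit of that ligase, read 11.4, below the floor, and 113.1, at least 1.67-fold higher, so that its ratio could not be below 0. Bach1, the repressor of Hmox1, read 1609 and 2464 by one probe set and 277.4 and 438.2 by the other, 1.53-fold and 1.58-fold higher, and was named after its values were seen. Bach1 was thus higher on the array on which Hmox1, by its only probe set, was lower. Any relation between these readings was not tested. Of 14 other NRF2 targets, 11 were measured, 7 above 0 and 4 below (36.4%, against 42.9% of all measured genes), with a median of 0.17. Aldh3a1, named after its values were seen, is among the 7 and read 38.1, below the floor, on the control array. Its ratio could not be below 0. Blvrb, a biliverdin and flavin reductase, was 1.71-fold higher at 1120 and 1918, and Osgin1 1.39-fold higher at 203.7 and 283.6. Of 6 measured genes of NADPH supply, 3 were above and 3 below 0, with malic enzyme Me1 1.41-fold lower at 2569 and 1818 and Pgls, a lactonase of the pentose phosphate pathway, 1.40-fold higher at 1014 and 1418. Over all 79 measured genes of these further lists, 1 was 2-fold lower or more and 0 were higher by as much. The shares over all measured genes were 2.23% and 1.63%, and these counts are too few to set apart from them. Among the 35 members the counts were 2 and 2, likewise too few. The median log2 ratio was -0.07 over the 79 genes and over the 35 members.

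**Figure D4:**
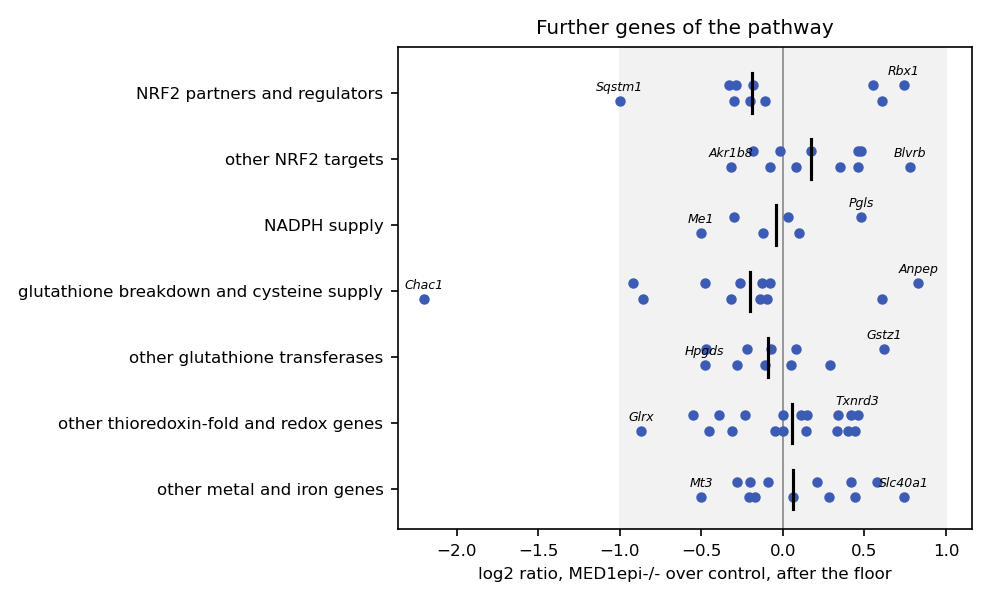
Log2 ratio of the array labelled MED1epi-/- over the control array (x axis, after the floor) for the measured genes of 7 further lists, each point a gene, with the median as a black bar and the lowest and highest gene of each list named; the grey band is within 2-fold. Chac1, at -2.20, is the only gene outside the band, and Sqstm1 lies at its lower edge.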

How the data were processed

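The deposited values are linear signal intensities, 1 for each probe set of an array. The authors made them with MAS5, per the submitters' processing notes, in GeneChip Operating Software, per the series' design text; its version is not given in the sources used here. The values show that both arrays were scaled to a mean of 500.0 after trimming 2% at each end. Detection calls were not used here. Of 45101 probe sets, 64 are controls, 34945 had 1 gene symbol in GEO's platform annotation, 932 several and 9160 none; 34741 matched, through their Entrez IDs, the RefSeq table of GRCm38.p6, which changed 0 symbols.

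Signals below 67.7 were raised to that floor, log2 was taken, and the control array was subtracted from the array labelled MED1epi-/-. Low MAS5 values are noisy because mismatch signal is subtracted. A gene took its strongest probe set by mean signal; a ratio with 1 array at the floor is a bound ("at least"). Genes with a ratio of 2 or more were counted beside the same count over all measured genes; signal bins are 10 equal parts of the mean log2 signal. The 18 hybridisation controls had log2 ratios from -0.17 to 0.21. The counting code was run on simulated data with planted differences, scored only for genes well above the floor. The noise simulated there was below the probe-set spread, so that run gives no error rate for these arrays. Members, lists and settings were chosen with earlier results of these data known. All members are described; of the further lists, genes 2-fold apart and the 2 farthest from 0 are named, except where said. Alternatives were 3 other floors, 3 rescalings, the mean over probe sets and leaving out suffixed probe sets. Work was done in Python 3.11.15 with pandas 2.3.3 and statsmodels 0.14.6.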

Additional observations from a re-analysis of the deposited data

How the results depend on the processing

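No paired analysis was possible because each group has 1 array, and for the same reason no replicate could be left out. The members at least 2-fold lower were Txnip and Txnrd1 under 7 alternatives; without suffixed probe sets 1 was left, Txnip, as all Txnrd1 probe sets carry a suffix. The members at least 2-fold higher became 3 with the floor at the 25th percentile (18.1) or none, by adding Gsta3 (log2 ratio 2.56 and 3.91), 0 with it at the 75th (434.6), where Gsta2 and Mgst2 are below the floor, and 1, Mgst2, without suffixed probe sets. Over all genes, 1120, 49 and 2226 were at least 2-fold higher and 934, 106 and 1896 lower with the floor at the 25th, at the 75th percentile and none. By the mean over probe sets, the median of superoxide dismutases and catalase was 0.03 and that of NRF2, its inhibitor and its targets 0.12, against -0.05. Of 266 ratios of single members under these alternatives, 260 moved by less than the probe-set spread of 0.31 and 6 by more (2 of Gsta3 and 1 each of Cat, Keap1, Prdx2 and Sod2). Many could not move, as a floor changes no ratio of a member above it on both arrays. The mean over probe sets changes none with 1 measured probe set. Setting the median ratio of the arrays to 0 lowered every member, so that it could turn none that was below 0. A member was left out of a setting in which it was not measured, as Gsta2 and Mgst2 were at the 75th percentile. The 260 therefore overstate stability. The peroxidase median of 0.02 was -0.05 with the median ratio of the arrays set to 0.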
